A study of Homo sapiens with 9 samples.

Results

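The genes described here build the hemidesmosome, the junction that ties the keratin skeleton of a basal keratinocyte to the basement membrane, and its ligand laminin-332. They are the integrin chains ITGA6, ITGB4 and ITGA3, the transmembrane collagen COL17A1, the tetraspanin CD151, the plakins DST and PLEC, and the laminin chains LAMA3 and LAMB3. They were chosen by symbol, with earlier results of these data known. They are 9 of the 58676 genes in the count table, and all 9 passed the filter on low counts. RNA was sequenced from HaCaT cells, a spontaneously immortalised human keratinocyte line, so the groups model a single cell line grown on its own. The groups were cells given 250 nM CDDO-Me, cells given 10 µM PRL-295 and control cells given 1% DMSO, each for 14 h and each with 3 libraries, called here by group and number (CDDO-Me 1). CDDO-Me, also called bardoxolone methyl, is a synthetic triterpenoid and an electrophile, and it switches on NRF2, which drives the antioxidant response. PRL-295, named here by its code, is a non-electrophilic NRF2 activator that blocks the binding of KEAP1, the repressor of NRF2, to NRF2. The labels name DMSO for the control cells only and do not say whether the cultures with compound held it. They also do not say whether a group's libraries came from separate cultures, so p-values measure the spread between these samples, which may be technical.

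In a type I hemidesmosome, the chains made from ITGA6 and ITGB4 pair into integrin α6β4, which binds laminin-332 outside the cell. Inside the cell, the long tail of the β4 chain and COL17A1 hold plectin (PLEC) and BP230, an isoform from DST, which hook onto keratin filaments. Laminin-332 holds the chains made from LAMA3 and LAMB3. The chain from ITGA3 pairs with that from ITGB1 into a second laminin-332 receptor, found in focal contacts, and CD151 is a membrane partner of both receptors. Inherited loss of most of these genes causes forms of skin blistering (epidermolysis bullosa).

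Libraries held 23383800 to 32942156 counted reads, and between 14543 genes (CDDO-Me 1) and 23271 genes (CDDO-Me 2) had at least 1 read. Markers of keratinocytes fitted the label: all 9 were above 0 in every group. Their summed level per library was 6070 to 6910 FPKM (fragments per length and depth) with CDDO-Me, 4070 to 4320 with PRL-295 and 4760 to 5290 with DMSO. Summed marker levels of fibroblasts, melanocytes, endothelial cells and immune cells reached at most 1.33, 1.05, 0.26 and 1.05 FPKM in any library. The NRF2 targets HMOX1, GCLM and NQO1 rose with both compounds. Libraries differed in how their gene counts followed GC content. Across tested genes, the correlation between GC and the distance of a library from the average profile was -0.02, -0.55 and -0.14 in CDDO-Me 1 to 3, -0.33, 0.27 and -0.08 in PRL-295 1 to 3 and 0.26, 0.21 and 0.27 in DMSO 1 to 3. A GC trend is thus partly confounded with treatment. Results of the members that it touches are given below with and without a per-library correction for both GC content and gene length, and without the libraries CDDO-Me 1 and PRL-295 2 where they decide a value.

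Coordinates are those of the deposited tables, on hg38, 1-based, and each span covers the exons and introns of the gene. ITGA6 (ENSG00000091409) lies on the plus strand of chromosome 2 at 172427354 to 172506282. ITGB4 (ENSG00000132470) and ITGA3 (ENSG00000005884) lie on the plus strand of chromosome 17, at 75721328 to 75757818 and at 50055968 to 50090481. CD151 (ENSG00000177697) lies on the plus strand of chromosome 11 at 832843 to 839831. COL17A1 (ENSG00000065618) lies on the minus strand of chromosome 10 at 104031286 to 104086002, DST (ENSG00000151914) on the minus strand of chromosome 6 at 56457987 to 56954628, and PLEC (ENSG00000178209) on the minus strand of chromosome 8. LAMA3 (ENSG00000053747) lies on the plus strand of chromosome 18 at 23689443 to 23955066, and LAMB3 (ENSG00000196878) on the minus strand of chromosome 1 at 209614870 to 209652466. The members span a wide range of GC content, from 41.3% in DST and 42.9% in ITGA6 over 50.7% in LAMA3, 55.9% in COL17A1 and 58.9% in LAMB3 to 61.3% in ITGA3, 62.6% in CD151, 63.7% in ITGB4 and 67% in PLEC. Counted lengths ran from 3938 bases in CD151 to 42341 bases in DST. They join the exons of all isoforms, so FPKM understates a gene of which mainly a short isoform is made, which bears most on DST and LAMA3. CD151 shares 257 exon bases, 6.53% of its own, with POLR2L on the opposite strand, which had 1922 to 4095 counts. The strand setting of the counting is not given, so reads from that stretch cannot be assigned to either gene. ITGA6 shares exon bases with 3 antisense genes, none of which was given more than 120 counts in a library, and the same limit holds for reads there.

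RefSeq promoter windows, 250 bases before to 50 after a start site on GRCh38.p14, were at hand for 5 of the 9 genes (ITGA6, COL17A1, DST, LAMA3 and LAMB3). They were searched on both strands for TGACNNNGC, the core of the antioxidant response element that NRF2 binds, and for TGANTCA, the AP-1 element, which some bases of the first can overlap. The windows of LAMA3, LAMB3 and COL17A1, 3 genes that rose with CDDO-Me, are shown whether or not the window held these letters. Each is printed in the direction of the gene, with AP-1 matches in capitals.

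LAMA3 (chr18:23872770-23873069, plus strand): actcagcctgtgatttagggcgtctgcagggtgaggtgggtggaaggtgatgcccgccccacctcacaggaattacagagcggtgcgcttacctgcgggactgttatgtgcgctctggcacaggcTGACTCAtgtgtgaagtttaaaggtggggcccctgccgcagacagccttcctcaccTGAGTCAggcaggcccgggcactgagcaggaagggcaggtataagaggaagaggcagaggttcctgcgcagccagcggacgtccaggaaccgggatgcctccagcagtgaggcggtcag
LAMB3 (chr1:209652376-209652675, minus strand): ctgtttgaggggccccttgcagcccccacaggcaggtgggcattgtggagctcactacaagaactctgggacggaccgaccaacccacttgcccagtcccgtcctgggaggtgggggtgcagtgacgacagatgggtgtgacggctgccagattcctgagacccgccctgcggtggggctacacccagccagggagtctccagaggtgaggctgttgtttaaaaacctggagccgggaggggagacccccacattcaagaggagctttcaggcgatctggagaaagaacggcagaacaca
COL17A1 (chr10:104085831-104086130, minus strand): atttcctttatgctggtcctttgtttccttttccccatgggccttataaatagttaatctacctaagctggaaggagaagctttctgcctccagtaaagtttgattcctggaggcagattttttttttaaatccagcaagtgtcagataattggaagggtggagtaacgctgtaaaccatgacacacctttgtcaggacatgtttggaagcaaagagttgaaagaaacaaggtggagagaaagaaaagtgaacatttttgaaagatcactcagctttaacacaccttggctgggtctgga

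The LAMA3 window held 2 AP-1 matches, TGACTCA starting 125 bases before the start site and TGAGTCA starting 69 bases before it, and no antioxidant response core. It belongs to an internal start inside the LAMA3 gene, that of the shorter transcripts. LAMB3 and COL17A1 held neither motif. Nor did the ITGA6 window, which is not shown, although ITGA6 rose too. Its last bases were held by 1 of the 11 ITGA6 transcripts of GENCODE 29, with 970 bases where the longest has 5618. Start sites of the other ITGA6 transcripts may thus not be covered. The DST window held 1 AP-1 match overlapping 1 antioxidant response core on the opposite strand, but it is not shown because it lies wholly upstream of the deposited DST gene, and none of the 35 DST transcripts of GENCODE 29 held its last bases. For comparison, 13.3% of the 35116 windows of the same table held the antioxidant response core and 7.71% the AP-1 letters. Such matches describe the letters in these windows and show neither binding nor its absence.

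Within DMSO libraries the members spread over a wide range of levels per length. COL17A1 was highest at 278 ± 7.57 FPKM (mean ± SD, n = 3 here and below), followed by LAMB3 at 237 ± 10.7 and ITGB4 at 145 ± 14.4. PLEC at 91.4 ± 18.8, ITGA3 at 89 ± 11.1 and LAMA3 at 85.2 ± 6.87 FPKM came next, with ranges that overlapped from neighbour to neighbour. CD151 followed at 56.5 ± 4.62, ITGA6 at 45.7 ± 1.34 and DST at 1.86 ± 0.16 FPKM. Outside the group of PLEC, ITGA3 and LAMA3, no neighbours in this order overlapped. With CDDO-Me the order changed mainly at ITGA6, which held rank 5 of 9 in CDDO-Me libraries, where its range overlapped those of LAMA3 and PLEC, and rank 8 in DMSO libraries. With PRL-295, ITGA6 held rank 7, with a range that overlapped that of CD151 below it. COL17A1 and LAMB3 stayed the highest pair in all 3 groups, with overlapping ranges in both compound groups.

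**Figure D1:**
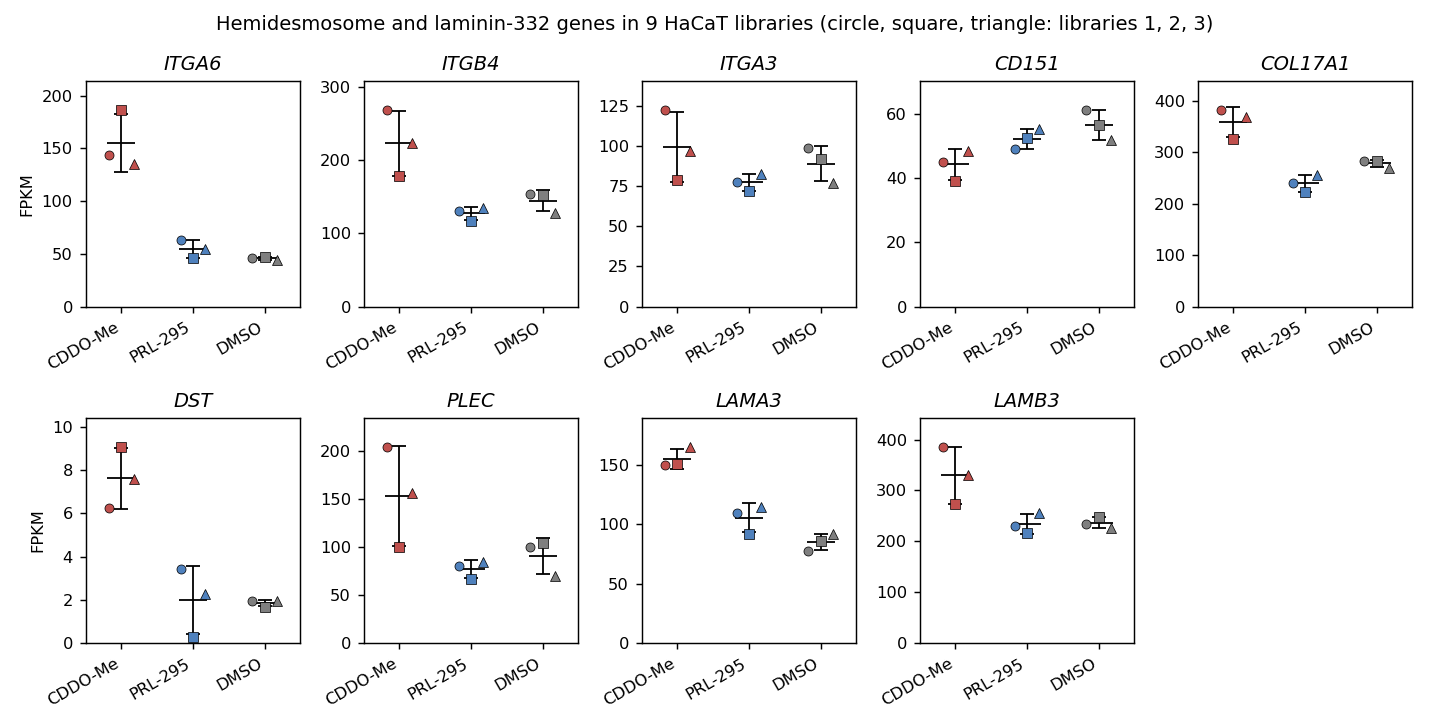
FPKM of the 9 hemidesmosome and laminin-332 genes in each library, by treatment; markers stand for libraries 1, 2 and 3, and bars for the mean ± SD of 3 libraries. The 3 CDDO-Me libraries of ITGA6 (135 to 186 FPKM) stand above all PRL-295 and DMSO libraries (44.2 to 62.8 FPKM), and the DST value of PRL-295 2 (0.311 FPKM) stands far below the others.

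The first comparison asked how the members responded to CDDO-Me. Genes for both chains of integrin α6β4, for COL17A1, DST, LAMA3 and LAMB3 rose with CDDO-Me, from 1.28-fold (COL17A1) to 4.09-fold (DST). No member fell, and ITGA3, CD151 and PLEC did not pass the test. These 6 of 9 calls, at an adjusted p under 0.05 from edgeR's quasi-likelihood test, stand against 9.22% of all 16239 tested genes called in either direction and 4.65% called higher and 4.57% called lower. At an unadjusted p under 0.05 it was 8 of the 9 members, against 26% of tested genes. In a test for any difference among the 3 groups, 4 members were called (ITGA6, ITGB4, COL17A1 and LAMA3), against 5.68% of tested genes. The median log2 fold change of the members was 0.62, against 0.01 over all tested genes. All 3 CDDO-Me libraries were above all 3 DMSO libraries, in scaled counts, for 6 members, a pattern shown by 15.5% of tested genes, and all were below for 1 (CD151), a pattern shown by 16.3%.

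Among the receptors, ITGA6 changed most. Its level was 144, 186 and 135 FPKM in CDDO-Me 1 to 3, 62.8, 46.2 and 55 FPKM in PRL-295 1 to 3 and 46.1, 46.8 and 44.2 FPKM in DMSO 1 to 3. The CDDO-Me libraries lay far above the rest, and the lowest PRL-295 library fell inside the DMSO range. The log2 fold change with CDDO-Me was 1.76 (95% interval 1.45 to 2.07, 3.38-fold, edgeR adjusted p = 5.61e-05).

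ITGB4, whose product pairs with no other α chain than α6, was at 268, 179 and 223 FPKM in CDDO-Me libraries, 130, 117 and 135 in PRL-295 libraries and 154, 152 and 128 in DMSO libraries. CDDO-Me and DMSO did not overlap, but the CDDO-Me libraries were widely spread. ITGB4 rose by a log2 fold change of 0.62 (interval 0.31 to 0.94, 1.54-fold, adjusted p = 0.024).

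COL17A1, the collagen that spans the membrane beside the integrin, was at 381, 325 and 368 FPKM in CDDO-Me libraries, 240, 223 and 255 in PRL-295 libraries and 282, 283 and 270 in DMSO libraries. Its 3 groups did not overlap, with PRL-295 lowest and CDDO-Me highest. The rise with CDDO-Me was small, at a log2 fold change of 0.36 (interval 0.15 to 0.57, 1.28-fold, adjusted p = 0.04), and it was 0.56 (adjusted p = 0.000736) with the GC and length correction.

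The genes of the second laminin-332 receptor and of the shared membrane partner come next. ITGA3 was at 122, 78.6 and 96.7 FPKM in CDDO-Me libraries, 77.7, 72 and 82.2 in PRL-295 libraries and 98.4, 91.8 and 76.8 in DMSO libraries, so that all 3 groups overlapped. Its log2 fold change with CDDO-Me was 0.15 (interval -0.19 to 0.49, adjusted p = 0.583), which does not exclude a change in either direction. With the GC and length correction it was 0.32 and called (adjusted p = 0.023). ITGB1, the gene for the partner chain of ITGA3 and no member here, rose with CDDO-Me without the correction. It was at 121 ± 41.2 FPKM against 61.3 ± 7.49 FPKM with DMSO (log2 fold change 0.98, adjusted p = 0.0164). The CDDO-Me libraries were at 81.2, 164 and 119 FPKM, highest in CDDO-Me 2, where the GC trend was steepest. No corrected value is given for ITGB1, so a contrast between these partner chains is not read.

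CD151 was at 45.2, 39.2 and 48.5 FPKM in CDDO-Me libraries, 49, 52.5 and 55.3 in PRL-295 libraries and 61.1, 56.5 and 51.8 in DMSO libraries. Every CDDO-Me library lay below every DMSO library, yet the log2 fold change of -0.35 (interval -0.61 to -0.10) did not pass the test (adjusted p = 0.0778). With the correction for GC content and length it was -0.08 (adjusted p = 0.638), and with DESeq2 it was called lower (adjusted p = 0.0369).

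The plakins, which link the junction to keratin, had the widest spread between libraries. DST was at 6.24, 9.06 and 7.57 FPKM in CDDO-Me libraries, 3.42, 0.311 and 2.28 in PRL-295 libraries and 1.96, 1.68 and 1.94 in DMSO libraries. In reads this was 8430, 11168 and 7493 counts with CDDO-Me, 3524, 357 and 2641 with PRL-295 and 2014, 2337 and 2612 with DMSO, so the low value of PRL-295 2 still rests on 357 reads. DST rose with CDDO-Me by a log2 fold change of 2.03 (interval 0.77 to 3.29, 4.09-fold, adjusted p = 0.0494). The shared estimate of the spread includes PRL-295 2, and without that library the same change had an adjusted p of 9.35e-05.

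PLEC, with the highest GC content of the members, was at 204, 100 and 156 FPKM in CDDO-Me libraries, 80.9, 66.8 and 84.1 in PRL-295 libraries and 100, 104 and 69.8 in DMSO libraries. CDDO-Me 2 lay within the DMSO range while CDDO-Me 1 and 3 lay above it. The log2 fold change of 0.74 (interval 0.23 to 1.25, adjusted p = 0.0695) did not pass the test, but it did without CDDO-Me 2 (0.96, adjusted p = 0.0116) and with the GC and length correction (0.83, adjusted p = 0.00055).

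Genes for the laminin-332 ligand rose as well. LAMA3, the chain that carries the integrin-binding end of the trimer, was at 150, 151 and 165 FPKM in CDDO-Me libraries, 110, 91.8 and 115 in PRL-295 libraries and 78, 85.8 and 91.7 in DMSO libraries. Its groups stood in that order with no overlap, the lowest PRL-295 library lying only just above the highest DMSO library. The log2 fold change with CDDO-Me was 0.87 (interval 0.63 to 1.10, 1.82-fold, adjusted p = 0.00103).

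LAMB3 was at 385, 273 and 331 FPKM in CDDO-Me libraries, 230, 216 and 256 in PRL-295 libraries and 235, 248 and 227 in DMSO libraries. Only the CDDO-Me libraries stood apart, with a log2 fold change of 0.48 (interval 0.19 to 0.76, 1.39-fold, adjusted p = 0.0437), or 0.72 (adjusted p = 0.000934) with the GC and length correction.

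The calls were not equally firm. ITGA6 and LAMA3 were called in all 9 fits that left out 1 library, with log2 fold changes of 1.59 to 1.85 and 0.80 to 0.92. The ITGB4 call ended without CDDO-Me 3 (adjusted p = 0.0593) and without DMSO 1, 2 or 3 (0.0734, 0.0727 and 0.0921). The DST call ended without CDDO-Me 2 or 3 (0.11 and 0.0943), PRL-295 3 (0.0691) or DMSO 1, 2 or 3 (0.151, 0.173 and 0.131). LAMB3 kept its call only without CDDO-Me 2 (0.0212) or PRL-295 2 (0.0354), and COL17A1 only without PRL-295 2 (0.0299). Without CDDO-Me 1 or 3, PRL-295 1 or 3 or DMSO 1, 2 or 3, the adjusted p was 0.0558 to 0.138 for LAMB3 and 0.0529 to 0.126 for COL17A1, which also ended without CDDO-Me 2 (0.0511). The direction of these 6 genes held in every such fit. The count of members called higher was 2 without CDDO-Me 3, DMSO 1, DMSO 2 or DMSO 3, where 2.88%, 1.32%, 1.17% and 1.81% of all tested genes were called higher. It was 3 without PRL-295 3 (2.39% of all tested genes) and 4 to 6 without any other library (1.84% to 9.08%). Summed keratinocyte markers were also higher with CDDO-Me than with DMSO, and in bulk RNA more cells of a type and more RNA per cell cannot be told apart.

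**Figure D2:**
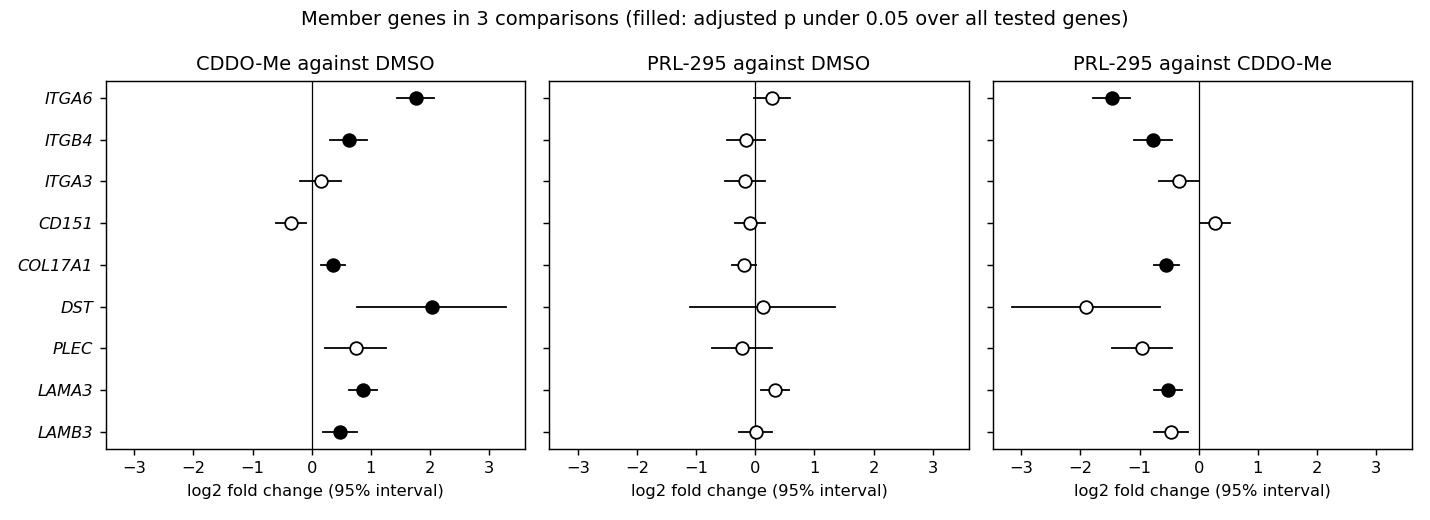
Log2 fold changes of the 9 genes in the comparisons of CDDO-Me with DMSO, PRL-295 with DMSO and PRL-295 with CDDO-Me; points are edgeR estimates from all 9 libraries and bars their 95% intervals, with filled points for an adjusted p under 0.05. ITGA6 (1.76) and DST (2.03) have the largest estimates for CDDO-Me, and no member is called for PRL-295 against DMSO.

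The ratio of ITGA6 to ITGB4, the chains of integrin α6β4, can be read within a library since both values are per length. It was 0.538, 1.04 and 0.604 in CDDO-Me 1 to 3, 0.484, 0.393 and 0.408 in PRL-295 1 to 3 and 0.299, 0.308 and 0.345 in DMSO 1 to 3. No groups overlapped: every library with a compound had a higher ratio than every DMSO library, and CDDO-Me 2 had the highest. On the log2 scale it differed by 1.14 between CDDO-Me and DMSO and by 0.43 between PRL-295 and DMSO, each with a two-sided exact permutation p of 0.1, the smallest that 3 against 3 libraries allow. The genes lie at opposite ends of the GC range, and the GC trend was steepest in CDDO-Me 2. Without CDDO-Me 2 the difference between CDDO-Me and DMSO was 0.85, and after GC and length correction the log2 fold changes with CDDO-Me were 1.48 for ITGA6 and 0.84 for ITGB4, which differ by 0.64. With PRL-295 against DMSO the corrected log2 fold changes of the pair differed by -0.07, so these data give no direction for that ratio.

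For the laminin chains the ratio differed less. The LAMA3 to LAMB3 ratio was 0.39, 0.555 and 0.499 in CDDO-Me libraries, 0.481, 0.425 and 0.449 in PRL-295 libraries and 0.332, 0.346 and 0.404 in DMSO libraries. The CDDO-Me and DMSO libraries overlapped (log2 difference 0.41, two-sided exact permutation p = 0.2), while the PRL-295 libraries all lay above the DMSO libraries (0.33, exact permutation p = 0.1). With the GC and length correction, the log2 fold changes of LAMA3 and LAMB3 differed by 0.14 with CDDO-Me and by 0.27 with PRL-295. The ratio of ITGA6 to ITGA3, the α chains of the 2 laminin-332 receptors, was 1.18, 2.36 and 1.4 in CDDO-Me libraries, 0.808, 0.641 and 0.669 in PRL-295 libraries and 0.468, 0.51 and 0.576 in DMSO libraries. Its groups did not overlap, and it is described without a test. ITGA6 and ITGA3 also lie apart in GC content, and their corrected log2 fold changes differed by 1.16 with CDDO-Me against DMSO, where the FPKM ratio gave 1.61, and by -0.07 with PRL-295 against DMSO, where it gave 0.44.

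**Figure D3:**
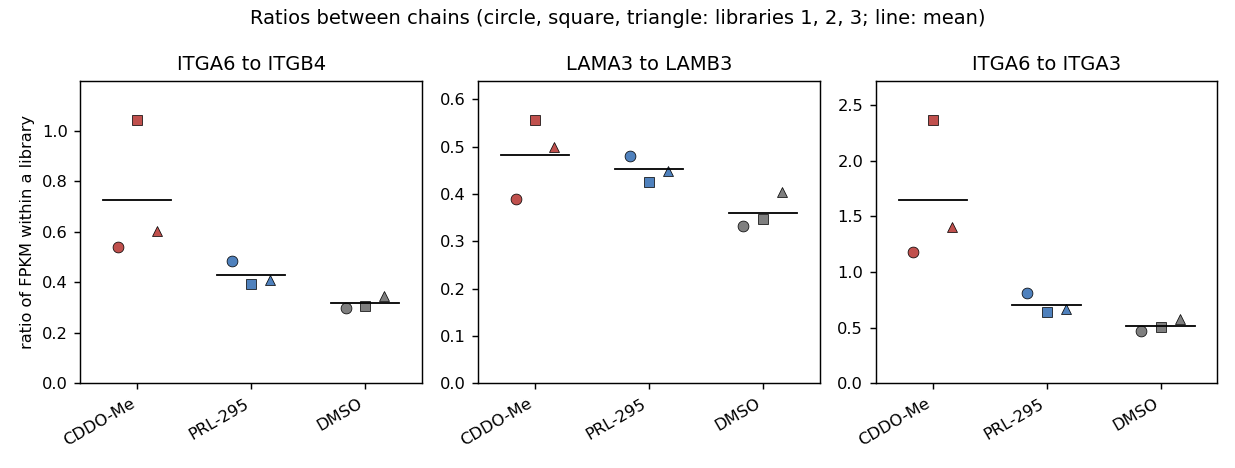
Ratios of FPKM within each library for ITGA6 to ITGB4, LAMA3 to LAMB3 and ITGA6 to ITGA3, on linear axes from 0, by treatment; each marker is 1 library and lines show the mean of 3 libraries. The ITGA6 to ITGB4 ratio of CDDO-Me libraries (0.538 to 1.04) lies above that of DMSO libraries (0.299 to 0.345), and the LAMA3 to LAMB3 ratios of these groups overlap.

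The second comparison set PRL-295 against DMSO. No member was called in either direction, where 0.684% of all tested genes were called (0.462% higher and 0.222% lower), so that a count of 0 among 9 genes is near what the whole table shows. The members' median log2 fold change was -0.08, against -0.01 over all genes, and 4 of the 9 estimates were above 0. DESeq2 called none of the members either, where it called 3.71% of all tested genes. At an unadjusted p under 0.05 there was 1 member (LAMA3), against 12.9% of all tested genes.

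The estimates bound the changes that could have been missed. For ITGA6 the log2 fold change was 0.28 (interval -0.02 to 0.58, adjusted p = 0.422), an upper bound well under the estimate for CDDO-Me. For LAMA3 it was 0.34 (interval 0.10 to 0.57, adjusted p = 0.208), with every PRL-295 library above every DMSO library. LAMB3 was at 0.01 (interval -0.27 to 0.29, adjusted p = 0.987). In scaled counts, 2 members (ITGA6 and LAMA3) lay wholly above DMSO, as did 13.5% of tested genes, and 1 (COL17A1) wholly below, as did 13.7%. COL17A1 had a log2 fold change of -0.19 (interval -0.40 to 0.02, adjusted p = 0.436). With the GC and length correction ITGA6 was at 0.08 (adjusted p = 0.87), COL17A1 at -0.01 (adjusted p = 0.992) and LAMB3 at 0.20 (adjusted p = 0.468), so no direction is read for these 3 genes.

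The remaining receptor genes had small negative estimates, at -0.16 for ITGB4, -0.18 for ITGA3 and -0.08 for CD151, and so had PLEC at -0.22. All 4 turned positive, between 0.14 and 0.27, with the GC and length correction, and none was called under it, so these data give no direction for them. LAMA3 was called under that correction (0.48, adjusted p = 0.0409), but no member was when PRL-295 2 was also left out. DST had no stable direction, with a log2 fold change of 0.12 (interval -1.10 to 1.34) from all libraries, 0.63 without PRL-295 2 and -0.49 without PRL-295 1, none of them called. With CDDO-Me 1 and PRL-295 2 both left out, DST (0.60, adjusted p = 0.0342) and LAMA3 (0.39, adjusted p = 0.037) were called higher with PRL-295.

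In the third comparison the compounds were set against each other. The doses differ (10 µM and 250 nM), so it concerns these treatments and not the compounds at a matched dose. ITGA6, ITGB4, COL17A1 and LAMA3 were lower in PRL-295 than in CDDO-Me libraries, and no member was called higher. These 4 of 9 calls compare with 1.59% of all tested genes called in either direction, with 0.905% called higher and 0.684% called lower. The members' median log2 fold change was -0.55, against -0.01 over all genes. All PRL-295 libraries lay below all CDDO-Me libraries for 7 members, as for 10.2% of tested genes, and above for 1 member (CD151), as for 14.4%.

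ITGA6 differed most among the called genes, with 54.7 ± 8.33 FPKM in PRL-295 libraries and 155 ± 27.1 FPKM in CDDO-Me libraries (log2 fold change -1.47, interval -1.78 to -1.17, adjusted p = 0.000527). It was called in all 9 fits without 1 library, between -1.57 and -1.29. ITGB4 was at 127 ± 8.86 FPKM with PRL-295 and 223 ± 44.7 FPKM with CDDO-Me (-0.78, interval -1.10 to -0.46, adjusted p = 0.0231). COL17A1 was at 239 ± 16.2 FPKM with PRL-295 and 358 ± 29.2 FPKM with CDDO-Me (-0.55, interval -0.76 to -0.34, adjusted p = 0.0172), and LAMA3 at 106 ± 12.3 FPKM with PRL-295 and 156 ± 8.56 FPKM with CDDO-Me (-0.53, interval -0.76 to -0.29, adjusted p = 0.0356).

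The calls for the last 3 genes were borderline. ITGB4 was not called without CDDO-Me 3 (adjusted p = 0.0812), PRL-295 1, 2 or 3 (0.0717, 0.089 and 0.101) or DMSO 2 (0.0519). COL17A1 was not called without CDDO-Me 3 (0.0812) or PRL-295 1, 2 or 3 (0.0605, 0.0628 and 0.101). LAMA3 was called only without CDDO-Me 1 (0.0444), and the other fits gave 0.0524 (without DMSO 1) to 0.13 (without PRL-295 3). With the GC and length correction LAMA3 was not called (-0.38, adjusted p = 0.0618), while PLEC (-0.56, 0.013) and LAMB3 (-0.52, 0.0145) were. The count of members called lower was 1 without CDDO-Me 3, PRL-295 1 or PRL-295 3, where 0.265%, 0.294% and 0.0997% of all tested genes were called lower. It was 2 without PRL-295 2 or DMSO 2 (0.262% and 0.338% of all tested genes), and 3 or 4 without any other library (0.401% to 0.695%).

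The members that were not called in the direct comparison mostly pointed the same way. LAMB3 had a log2 fold change of -0.47 (interval -0.75 to -0.18, adjusted p = 0.101), PLEC of -0.96 (interval -1.47 to -0.45, adjusted p = 0.07) and ITGA3 of -0.33 (interval -0.67 to 0.01, adjusted p = 0.309), or -0.17 (adjusted p = 0.228) with the GC and length correction. CD151, at 0.27 (interval 0.02 to 0.52, adjusted p = 0.26), was the only estimate above 0. DST had the largest estimate, -1.91 (interval -3.16 to -0.65, adjusted p = 0.122). Without PRL-295 2 its log2 fold change was smaller but called, at -1.40 (adjusted p = 0.0122).

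DST in PRL-295 2 stood apart by more than the fitted trend in GC content and length. Its log2 deviation from the mean of all libraries was -3.04, of which the fitted trend in that library gave -0.57. The remaining -2.47 compares with 0.13 and -0.16 in PRL-295 1 and 3. PRL-295 2 also had a negative correlation of its deviations with log2 gene length (-0.16), as did DMSO 3 (-0.18), and DST is the longest member. DST was not alone in its low level in PRL-295 2. Of the protease genes listed below, ADAM9 was at 27.2, 8.13 and 24.7 FPKM in PRL-295 1 to 3 and 15.4 to 19.5 FPKM with DMSO. ADAM10 was at 6.82, 2.18 and 5.23 FPKM in PRL-295 1 to 3 and 3.91 to 4.33 FPKM with DMSO. The other tested genes of that list showed no such drop. The cause was not tested.

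Within CDDO-Me, the members' spread followed GC content. Of the 9 genes, 5 were highest in CDDO-Me 1 and 6 lowest in CDDO-Me 2. The log2 difference of library 2 from library 1 was -1.04 for PLEC and 0.35 for ITGA6, and over the 9 genes it had a Pearson correlation with GC content of -0.94 (Spearman -0.87). These points share the same pair of libraries, so this is a description. With the correction, the SD of log2 CPM among CDDO-Me libraries was smaller for 8 of the 9 genes, with a median of 0.12 against 0.25 uncorrected. With PRL-295 it grew for ITGB4, COL17A1 and LAMB3 (from 0.12 to 0.16 for LAMB3) and shrank for the other members. With DMSO it grew for ITGA6, DST and LAMA3 (from 0.13 to 0.18 for LAMA3) and shrank or stayed the same for the rest. Under the correction 7 members were called higher with CDDO-Me than with DMSO, against 4.17% of all tested genes. They were ITGA6, ITGB4, COL17A1, LAMA3, LAMB3, PLEC and ITGA3 (0.32, adjusted p = 0.023). DST was not among them (1.48, adjusted p = 0.0704). With PRL-295 2 also left out, a fit added after seeing the data, DST had the same estimate and was called (1.48, adjusted p = 4.32e-05). Over all genes the correction changed the calls from 1497 to 1250, of which 794 were shared. Since the GC trend is partly confounded with treatment, how much of a true change the correction removes was not tested.

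**Figure D4:**
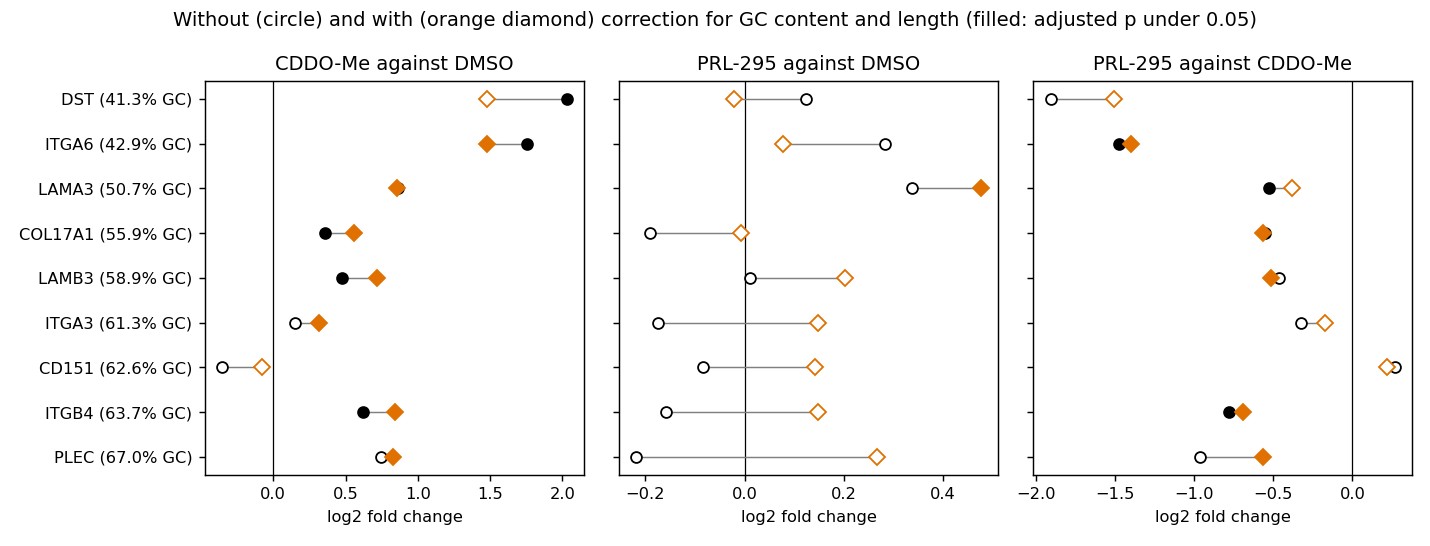
Log2 fold changes of the 9 genes without and with the per-library correction for GC content and length, 1 panel per comparison, with genes ordered by GC content and an x axis of its own in each panel; circles are uncorrected, orange diamonds corrected, and filled marks have an adjusted p under 0.05. With CDDO-Me against DMSO the low-GC genes ITGA6 (1.76 and 1.48) and DST (2.03 and 1.48) shrink under the correction, and the GC-rich PLEC becomes called.

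Other genes of the same cell-matrix system were counted by list, without the correction, and each count is to be read against the share of all tested genes. That share was 4.65% higher and 4.57% lower with CDDO-Me against DMSO, 0.684% in either direction with PRL-295 against DMSO and 1.59% between the compounds. Of 18 further basement membrane genes, 1 rose and 2 fell with CDDO-Me against DMSO, with a median log2 fold change of 0.04. COL7A1, the anchoring fibril collagen that binds laminin-332 from below (0.92, adjusted p = 0.014), rose. HSPG2, which encodes perlecan (-0.84, adjusted p = 0.0245), and the dystroglycan gene DAG1 (-0.58, adjusted p = 0.00812) fell. With PRL-295 against DMSO none of the 18 was called, with a median of -0.31. The most abundant were AGRN, the gene for agrin, at -0.46 (adjusted p = 0.2), and the laminin γ1 gene LAMC1 at 0.06 (adjusted p = 0.856). HSPG2 and DAG1 were at -0.77 and -0.405 there (adjusted p = 0.118 and 0.121), and COL7A1 at -0.15 (adjusted p = 0.83). For HSPG2 and DAG1 every PRL-295 library lay below every DMSO library, as for 13.7% of tested genes. Their fall is thus not shown to be particular to CDDO-Me. In the direct comparison 3 were lower in PRL-295 libraries and none was higher, with a median of -0.32. They were COL7A1 (-1.06, adjusted p = 0.0193), the type IV collagen gene COL4A5 (-0.96, adjusted p = 0.034) and the laminin β2 gene LAMB2 (-0.64, adjusted p = 0.0424).

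Of 14 focal adhesion genes, 3 rose and none fell with CDDO-Me, against 4.65% and 4.57% of all tested genes, with a median of 0.20. They were FERMT2 (1.19, adjusted p = 0.00805) and FERMT1 (0.59, adjusted p = 0.00278), which encode the integrin activators kindlin-2 and kindlin-1, and ITGB1. None of the 14 was called with PRL-295 against DMSO (median -0.06), where the most abundant, the actinin genes ACTN1 and ACTN4, were at -0.09 and -0.12 (adjusted p = 0.818 and 0.821). FERMT2 and FERMT1 were at 0.82 and 0.35 there (adjusted p = 0.123 and 0.116). For both, every PRL-295 library lay above every DMSO library, as for 13.5% of tested genes, so their rise is not shown to be particular to CDDO-Me. ITGB1 was at 107 ± 12.8 FPKM with PRL-295 and 61.3 ± 7.49 FPKM with DMSO (0.83, adjusted p = 0.117). None of the 14 was called between PRL-295 and CDDO-Me either (median -0.19).

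Of 7 genes for proteases that cleave laminin-332 or COL17A1, or activate such proteases, 6 were tested. With CDDO-Me ADAM17, a sheddase (0.94, adjusted p = 0.00506), rose and BMP1, a laminin-processing protease (-0.55, adjusted p = 0.0183), fell, with a list median of 0.36. ADAM9 and ADAM10 were at 0.71 and 0.64 with CDDO-Me but were not called (adjusted p = 0.199 and 0.232). For both, every CDDO-Me library lay above every DMSO library, as for 15.5% of tested genes. The shared estimate of the spread includes PRL-295 2, where both were low. None of the 6 was called with PRL-295 against DMSO, where the abundant MMP14 was at 0.12 and FURIN at -0.34 (adjusted p = 0.721 and 0.337), or between PRL-295 and CDDO-Me.

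Of 4 genes that mark basal keratinocytes, the cell layer that carries hemidesmosomes, KRT5 (0.38, adjusted p = 0.0146) and TP63 (0.60, adjusted p = 0.0447) rose with CDDO-Me. KRT15 (-2.97, adjusted p = 4.08e-06) fell, and KRT14 was at 0.30 (adjusted p = 0.083). With PRL-295, KRT15 fell against DMSO (-1.09, adjusted p = 0.00702). Against CDDO-Me, KRT15 was higher with PRL-295 (1.88, adjusted p = 0.000172), and KRT5 (-0.68, adjusted p = 0.00239) and KRT14 (-0.80, adjusted p = 0.00352) were lower. The part of these markers in the members' changes was not tested.

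Among the genes whose profile over the 9 libraries was most like the mean standardised profile of the members were DYNC1H1 (Pearson r = 0.979), VCL (0.977), COL7A1 (0.975) and THBS1 (0.97), out of 8837 genes that averaged 10 or more CPM (counts scaled by library size). Libraries share depth and GC trend across genes, so these values are a description. Among the members themselves, the closest pairs over the 9 libraries were ITGB4 with PLEC (0.978), with COL17A1 (0.967) and with LAMB3 (0.962). ITGA6 was closest to LAMA3 (0.924), and ITGA6 and CD151 ran against each other (-0.883).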

How the data were processed

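RNA was sequenced in 9 libraries. Per the labels' protocols, STAR 2.5 aligned the reads and HTSeq 0.6.1 counted those of each gene, and the build is hg38 per the submitters' processing notes. The annotation release is not given in the sources used here. The authors deposited raw counts per gene, and FPKM, which equalled the count divided by gene length and library total for 100% of values within 0.1%. Counts were tested with edgeR 4.0.16 (R 4.3.3): filterByExpr by group, TMM scaling, quasi-likelihood fit of all 9 libraries, Benjamini-Hochberg adjustment over 16239 genes per comparison, threshold 0.05. Levels and ratios are FPKM. Alternatives were DESeq2 1.42.0, other scalings and filters, limma 3.58.1 on log2(FPKM + 1 or 0.1), leaving out libraries, a replicate block, and loess offsets (span 0.3) for GC content (longest GENCODE 29 transcript) and length. Leaving out CDDO-Me 1 with PRL-295 2, and either with the offsets, was added after seeing the data. The members and lists were chosen with earlier results of these data known. All members were named, and from other lists up to 4 called genes with the largest change, or else the 2 most abundant. Some of these were also given in comparisons where they were not called. ITGB1, HMOX1, GCLM and NQO1 were named whatever their values. ADAM9 and ADAM10 were added after seeing the data, for their levels in PRL-295 2. No 2 libraries were duplicates. Some genes are not reported here. Fits were run on simulated data, which did not combine a GC trend with a treatment effect, so the confounding described above was not checked.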

Additional observations from a re-analysis of the deposited data

Results flagged for a closer look

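For 4 of the 9 genes the effects of the compounds differed by a test of the difference itself, PRL-295 against CDDO-Me in the edgeR fit. That test called 1.59% of all tested genes. The log2 difference was -1.47 for ITGA6, -0.78 for ITGB4, -0.55 for COL17A1 and -0.53 for LAMA3, each lower with PRL-295 at 10 µM than with CDDO-Me at 250 nM. ITGA6 was lower in every PRL-295 library than in every CDDO-Me library, as were the other three genes. The calls for ITGB4, COL17A1 and LAMA3 each ended when single libraries were left out. With 3 libraries per group, no test for a sample far from its group was made.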

How the results depend on the processing

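Among the members, the rises of ITGA6 and LAMA3 with CDDO-Me and the lower ITGA6 level with PRL-295 against CDDO-Me kept direction and call under every alternative run. DESeq2 called 2616, 603 and 1054 genes for CDDO-Me against DMSO, PRL-295 against DMSO and PRL-295 against CDDO-Me (edgeR 1497, 111 and 258). It called 1 member (CD151) lower with CDDO-Me, against 7.67% of all tested genes. Without a filter the counts were 2509, 825 and 1250, with 7 members lower in PRL-295 than in CDDO-Me libraries, against 2.36% of all tested genes. Calls with CDDO-Me against DMSO ended for COL17A1 without a filter (adjusted p = 0.0705), for DST with library size only (0.0544) and in limma with a pseudocount of 0.1 (0.101), and for LAMB3 in the fit of 6 libraries (0.0541) and in limma with a pseudocount of 1 and 0.1 (0.0574 and 0.0601). In fits of only the 6 libraries compared the counts were 650 for PRL-295 against DMSO and 45 for PRL-295 against CDDO-Me. In the last, 1 member was lower, against 0.117% of all tested genes, since ITGB4, COL17A1 and LAMA3 were no longer called (0.104, 0.101 and 0.114). The GC and length correction gave 249 and 555 genes in these comparisons. Under it 1 member (LAMA3) was higher with PRL-295 than with DMSO, against 1.1% of all tested genes. Leaving out CDDO-Me 1 under it gave 555 and 580, again with 1, against 2.16% of all tested genes. Leaving out PRL-295 2 under it gave 108 and 238, with 0 members higher with PRL-295 than with DMSO. Leaving out CDDO-Me 1 and PRL-295 2 without the correction gave 4219 and 978 genes in the comparisons with DMSO. Then 1 member (CD151) was lower with CDDO-Me, against 10.5% of all tested genes, and 2 were higher with PRL-295, against 4.16%. In PRL-295 libraries 5 members were lower than in CDDO-Me libraries, against 0.72% of all tested genes. Leaving out each library in turn gave 400 to 2803, 33 to 589 and 60 to 285 genes. In these fits 2 to 6 members were higher with CDDO-Me than with DMSO (1.17% to 9.08% of all tested genes) and 0 lower (1.2% to 7.43%). Between PRL-295 and DMSO 0 were called (0.193% to 3.47% of all tested genes). In PRL-295 libraries 1 to 4 were lower than in CDDO-Me libraries (0.0997% to 0.695%). The causes were not tested.

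Whether equal replicate numbers mark paired libraries is not known. The correlation of deviations between libraries of equal number ran from -0.137 to 0.104, and CDDO-Me 2 with PRL-295 1 reached 0.154. These values show no pairing by number but cannot exclude it, since libraries also differ in their GC trend. The replicate block gave 864, 60 and 156 genes and 3 members higher with CDDO-Me than with DMSO, against 2.56% of all tested genes. With the GC and length correction added it gave 202 genes for PRL-295 against DMSO and 534 for PRL-295 against CDDO-Me. There 1 member (LAMA3) was higher with PRL-295 than with DMSO, against 0.911% of all tested genes. Under the block the calls of COL17A1, DST and LAMB3 with CDDO-Me ended (adjusted p = 0.0704, 0.079 and 0.0792), as did that of LAMA3 between the compounds (0.0515). The log2 fold change of DST with PRL-295 against DMSO was -0.078 under the block and -0.158 with the correction added.

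No value that changed sign was called in the fit where it did so, nor in the fit of all 9 libraries. With PRL-295 against DMSO, the GC and length correction gave 0.148, 0.147, 0.141, 0.267 and -0.022 for ITGB4, ITGA3, CD151, PLEC and DST, in that order here and next. With the block it gave 0.146, 0.148, 0.139 and 0.267 for the first 4. Without CDDO-Me 1 it gave 0.146, 0.145, 0.138, 0.265 and -0.031. Without PRL-295 2 it gave 0.219, 0.185, 0.174 and 0.317 for the first 4, and 0.059 for COL17A1. DST was at -0.099 and -0.373 in limma with a pseudocount of 1 and 0.1, and at -0.488 to 0.633 when single libraries were left out. LAMB3 was at -0.001 with DESeq2 and with RLE scaling, -0.016 with library size only, -0.019 in limma with either pseudocount and -0.025 to 0.062 when single libraries were left out. ITGA3 with CDDO-Me against DMSO was at -0.028 to 0.277 when single libraries were left out and at -0.037 without CDDO-Me 1 and PRL-295 2. The log2 ratio of LAMA3 to LAMB3 between PRL-295 and CDDO-Me ran from -0.223 to 0.031 in such fits, and the corrected log2 fold changes of the pair differed by 0.134. Depth was not limiting for the members, the lowest count being 357 (DST), while 3 libraries per group set the precision.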
